A study of Homo sapiens with 6 samples.

Results

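The question was which mRNAs separate 2 MDA-MB-231 lines that over-express different transfer RNAs. MDA-MB-231 is a human breast cancer cell line of the class that lacks oestrogen and progesterone receptors. One line stably over-expressed the tRNA-Glu locus labelled chr1.trna5 (Glu-TTC), the other the tRNA-Arg locus labelled chr16.trna1 (Arg-CCG), and mock-transfected MDA-MB-231 cells were the control. Total RNA of each group was hybridised to 2 Illumina BeadChip arrays, 6 arrays in all, and the contrast described here is tRNA-Glu minus tRNA-Arg. Its members are 10579 of the 20046 genes named on the array. A gene is a member if 1 of its probes had a detection p-value below 0.01 on 2 or more of the 4 line arrays. Each tRNA was given to 1 line, so the tRNA and the line that carries it cannot be told apart. Whether replicate arrays stand for separate cultures is not stated in the labels, so the p-values measure only the spread between arrays, which may be technical.

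Transfer RNAs carry amino acids to the ribosome and read codons through their anticodon, and tRNA-Glu and tRNA-Arg of these anticodons read GAA and CGG. RNA polymerase III makes tRNAs, aminoacyl-tRNA synthetases load them, and a shortage of loaded tRNA switches on the ATF4 amino acid response. In breast cancer cells tRNA supply has been studied as a way in which translation and mRNA stability of particular genes can shift.

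The arrays were alike in quality, with 16650 to 17704 probes detected on each. Across genes the 2 tRNA-Glu arrays correlated at r = 0.997, the 2 tRNA-Arg arrays at r = 0.997, and arrays of different lines at 0.980 to 0.983. Values below are normalised intensities, background-corrected with an offset of 16 that keeps low values from reaching 0, and they compare groups for 1 probe, never 1 gene with another. Of the markers of this line, VIM, CD44, CAV1 and AXL were detected on all 4 line arrays, and ESR1, PGR and CDH1, which it is known to lack, on none of them. EPCAM, an epithelial adhesion gene that is usually low in this line, was nevertheless detected on all 4 line arrays, at 291 and 226 in tRNA-Glu arrays and 288 and 293 in tRNA-Arg arrays.

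Relative to the tRNA-Arg line, lysosomal genes, NF-kB targets and cytokines, and interferon-stimulated genes were more often higher than lower in the tRNA-Glu line. YAP and TEAD target genes, splicing factors and RNA exosome genes were more often lower than higher. These gene lists were written with earlier results of these data known, so their counts are a description and not a test. In the fit over all genes (limma, Benjamini-Hochberg adjusted p under 0.05), 4686 of 10579 genes were called (44.3%), 2685 higher (25.4%) and 2001 lower (18.9%). Most differences were small. Of the called genes, 551 were at least 1.5-fold higher and 571 at least 1.5-fold lower, while 45 and 56 passed 2-fold and 5 and 0 passed 4-fold. In 7918 genes (74.8%) the 2 tRNA-Glu arrays did not overlap the 2 tRNA-Arg arrays. Scaling mattered for the count: with each array set to a common median in place of quantile normalisation, 1323 genes were called (12.5%), of which 42.3% were higher, against 57.3% of the calls with quantile normalisation. That median was taken over all 47323 probes, of which 17301 were kept, so it was set mostly by probes that were not kept. With cyclic loess, another way to align arrays, 4732 genes were called (44.7%). Quantile normalisation and cyclic loess were run over the same 47323 probes. The median difference over all genes was 0.05 on the log2 scale, and 0.03 with median scaling.

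**Figure D1:**
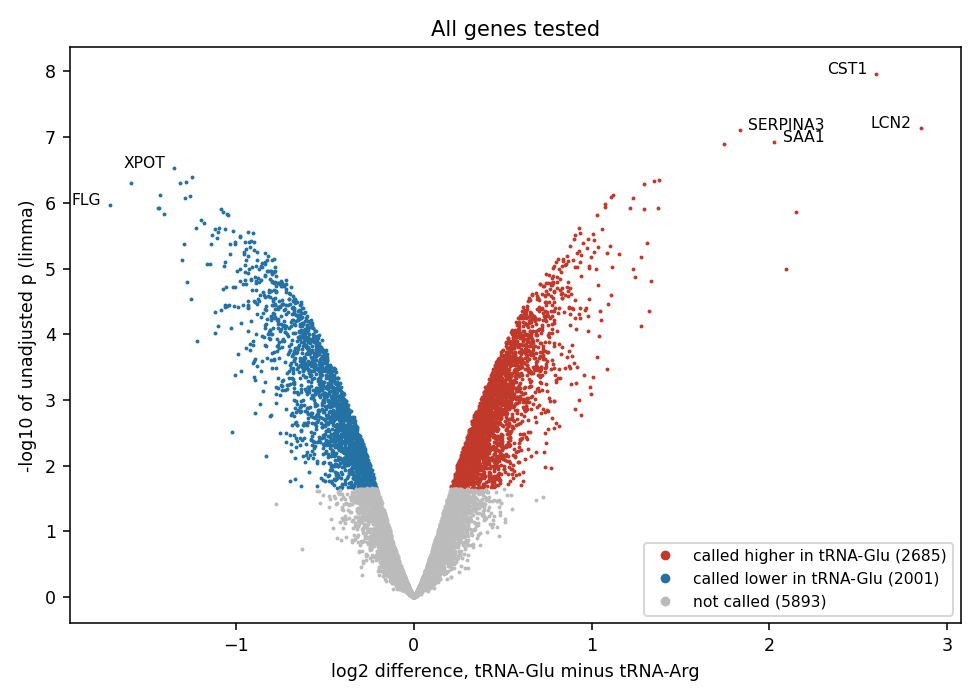
Each point is 1 of 10579 genes, with the log2 difference of tRNA-Glu minus tRNA-Arg on the x axis and -log10 of the unadjusted limma p on the y axis. The 5 genes beyond 4-fold all lie on the right, where LCN2, CST1 and SAA1 are named.

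Direction is tRNA-Glu minus tRNA-Arg throughout, as the array labels give it. The authors' deposited table of fold changes runs the other way: over 8855 matched genes its tRNA-Glu minus tRNA-Arg value had r = -0.89 with the differences here, and all 92 matched genes called at 2-fold had the opposite sign. In CST1 its values against control were 0.84 for tRNA-Glu and 2.53 for tRNA-Arg, beside -0.96 and -3.56 here. In LCN2 they were -1.34 and 0.08, beside 2.57 and -0.28 here. In both genes each line's own value against control was thus opposite in sign. Both lines were also set against the same 2 control arrays. The tRNA-Glu line had 6411 genes called against control (60.6%), 3494 higher (33%) and 2917 lower (27.6%), and the tRNA-Arg line 5083 (48%), 2516 higher (23.8%) and 2567 lower (24.3%). Because the control arrays are shared, those comparisons serve here only to show, gene by gene, where each line lay.

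Acute-phase proteins led the rises. LCN2, a secreted protein that binds bacterial iron carriers, measured 199.8 and 241 in tRNA-Glu arrays, 27.3 and 33.8 in tRNA-Arg arrays and 39.5 and 34.6 in control arrays. Both tRNA-Glu arrays lay far above the rest, and the tRNA-Arg and control arrays had similar values; on tRNA-Arg replicate 1 its detection p was 0.0182. The difference was 7.22-fold (log2 2.85 ± 0.14 SE, limma adjusted p = 0.000268, n = 2 for each group as throughout). SAA1 and SAA2, acute-phase apolipoproteins of nearly identical sequence whose probes may share signal, moved together. SAA1 read 362 and 420.2 in tRNA-Glu arrays, 98.1 and 93.3 in tRNA-Arg arrays and 64.8 and 57.1 in control arrays. SAA2 read 162 and 163 in tRNA-Glu arrays, 43.05 and 31.3 in tRNA-Arg arrays and 27.03 and 22.6 in control arrays. Both genes were highest in tRNA-Glu arrays, next in tRNA-Arg arrays and lowest in control arrays, with no overlap between the lines (log2 2.03 ± 0.10 and 2.15 ± 0.15 SE, limma adjusted p = 0.000268 and 0.000482). A dimmer SAA1 probe differed by 0.92. The SAA2 detection p was 0.0104 on tRNA-Arg replicate 2 and 0.0364 and 0.158 on the control arrays, so its lowest values were near background.

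SERPINA3, alpha-1-antichymotrypsin, separated the lines to either side of control. It measured 100.1 and 110.5 in tRNA-Glu arrays, 30.2 and 28.9 in tRNA-Arg arrays and 64.7 and 59.1 in control arrays (log2 1.83 ± 0.09 SE, limma adjusted p = 0.000268). Against control it was called higher in the tRNA-Glu line (0.77) and lower in the tRNA-Arg line (-1.07). Its detection p on tRNA-Arg replicate 2 was 0.0247. SERPINA1, alpha-1-antitrypsin, was 2.59-fold higher, at 215 and 213 in tRNA-Glu arrays, 79.1 and 86.4 in tRNA-Arg arrays and 50.7 and 58.98 in control arrays. TNFRSF1B, a receptor for tumour necrosis factor, was 2.5-fold higher, at 153 and 145 in tRNA-Glu arrays, 65.5 and 54.2 in tRNA-Arg arrays and 28.7 and 39.3 in control arrays. In both of these genes the tRNA-Arg arrays lay between the tRNA-Glu and control arrays.

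In a second set the tRNA-Arg line stood apart. CST1, a secreted cystatin that inhibits cysteine proteases, measured 397 and 377 in tRNA-Glu arrays, 58.7 and 69.1 in tRNA-Arg arrays and 762 and 739 in control arrays. The tRNA-Arg arrays were far below both other groups, and the tRNA-Glu arrays lay between them and control. Its difference between the lines was 6.07-fold (log2 2.60 ± 0.10 SE, limma adjusted p = 0.000114), beside -0.96 for tRNA-Glu minus control and -3.56 for tRNA-Arg minus control. CST4, a cystatin of similar sequence, followed the same order, at 123 and 131 in tRNA-Glu arrays, 38.1 and 23.3 in tRNA-Arg arrays and 212 and 205 in control arrays. On tRNA-Arg replicate 2 the CST4 detection p was 0.129, so that value was not above background. Another CST4 probe differed by 1.21. EBI3, a subunit of the cytokines interleukin-27 and interleukin-35, measured 178 and 169 in tRNA-Glu arrays, 48.2 and 55.2 in tRNA-Arg arrays and 202 and 195 in control arrays, so that its tRNA-Glu arrays were close to control and its tRNA-Arg arrays low. C1QTNF1, a secreted C1q-domain protein, had the pattern of CST1, at 272 and 248 in tRNA-Glu arrays, 102 and 102 in tRNA-Arg arrays and 424 and 396 in control arrays.

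The remaining large rises were MUC1, a membrane mucin of luminal epithelium (2.6-fold, log2 1.38), and SLC67A1-AS, an antisense transcript (log2 1.33). MUC1 measured 120.4 and 124 in tRNA-Glu arrays, 44.2 and 49.8 in tRNA-Arg arrays and 54.2 and 52.8 in control arrays, with tRNA-Arg and control arrays alike. The 12 largest rises are CST1, CST4, EBI3 and C1QTNF1, in which the tRNA-Arg arrays were the lowest and control the highest, and 8 genes in which the tRNA-Glu arrays were the highest of the 6.

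**Figure D2:**
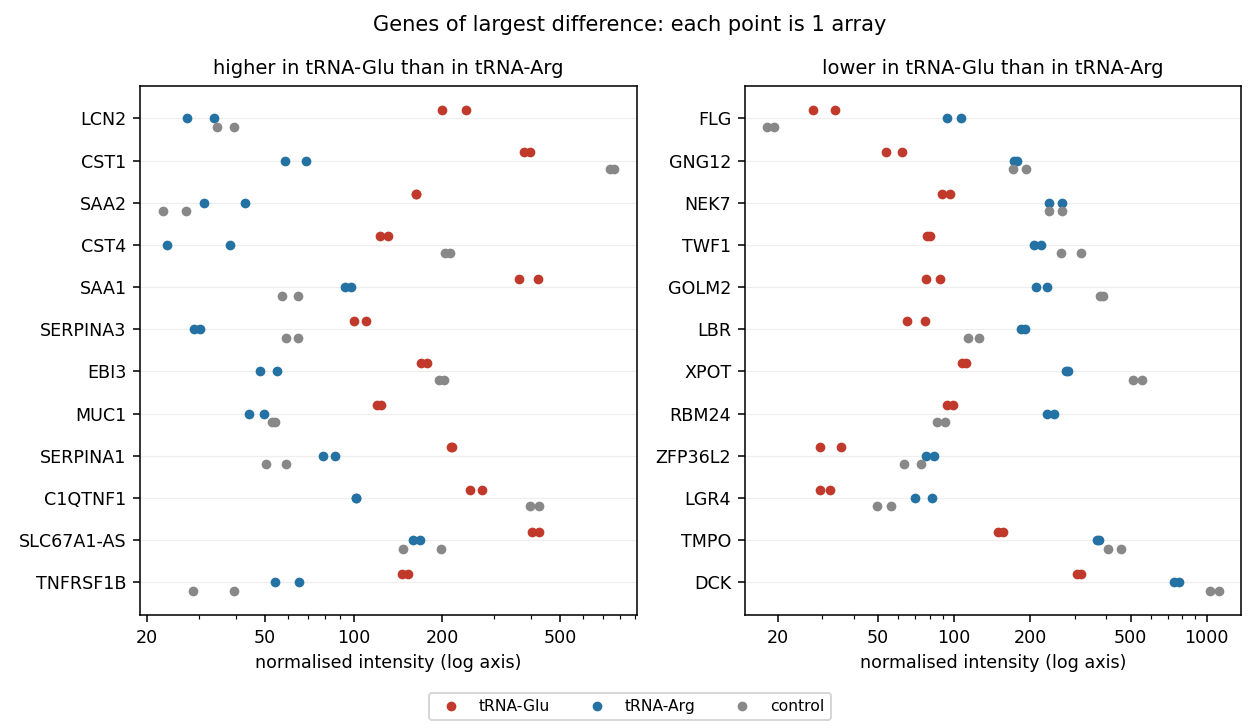
Normalised intensity (log axis) of the 12 genes of largest rise and the 12 of largest fall in tRNA-Glu against tRNA-Arg, with 1 point per array for tRNA-Glu, tRNA-Arg and control. LCN2 and MUC1 show tRNA-Arg near control, while CST1, EBI3 and C1QTNF1 show tRNA-Arg below both other groups.

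No fall passed 4-fold. FLG, filaggrin, a structural protein of the cornified skin layer, measured 27.5 and 33.9 in tRNA-Glu arrays, 93.4 and 107 in tRNA-Arg arrays and 18.2 and 19.4 in control arrays and had the largest fall (log2 -1.71 ± 0.12 SE, limma adjusted p = 0.000472). Here both lines read above control and the tRNA-Arg line furthest, but the control arrays were not above background (detection p 0.97 and 0.697). On tRNA-Glu replicate 1 the FLG detection p was 0.0312, so the size of the fall was set near background. RBM24, an RNA-binding protein of muscle splicing, likewise stood apart in the tRNA-Arg line, at 94.1 and 99.1 in tRNA-Glu arrays, 248 and 233 in tRNA-Arg arrays and 91.9 and 85.4 in control arrays. In most other large falls the tRNA-Glu arrays were the lowest. GNG12, a G protein gamma subunit, measured 62.1 and 53.9 in tRNA-Glu arrays, 172 and 177 in tRNA-Arg arrays and 172 and 193 in control arrays. NEK7, a kinase needed for NLRP3 inflammasome assembly, measured 96.7 and 89.2 in tRNA-Glu arrays, 268 and 237 in tRNA-Arg arrays and 236 and 268 in control arrays. In these genes the tRNA-Arg arrays overlapped or touched the control arrays. TWF1, an actin-binding protein (log2 -1.43), GOLM2, a Golgi membrane protein (-1.43), and DCK, deoxycytidine kinase of nucleotide salvage (-1.28), were also lowest in tRNA-Glu, with tRNA-Arg arrays between tRNA-Glu and control.

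LBR and TMPO encode inner nuclear membrane proteins that bind lamin and chromatin. Each fell on its brightest probe, LBR by 1.41 and TMPO by 1.29 on the log2 scale, but the other kept probe differed by -0.20 in LBR and by 0.19 in TMPO. XPOT, the nuclear export receptor of tRNAs, fell by 1.35 (± 0.08 SE, limma adjusted p = 0.000419). It measured 107 and 112 in tRNA-Glu arrays, 282 and 277 in tRNA-Arg arrays and 512 and 554 in control arrays, so that both lines were below control and the tRNA-Glu line lowest. ZFP36L2, which binds AU-rich elements and destabilises mRNAs (-1.31), and LGR4, an R-spondin receptor of the Wnt pathway (-1.29), complete the 12 largest falls.

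A further 21 genes were above background only in the tRNA-Glu line and 24 only in the tRNA-Arg line. Of each, 5 with the largest bounds are named, as a description with no test, since they were picked for being above background in 1 line. A bound sets the brighter line's mean against the lowest signals above background in the other. AGR2, a secretory-pathway disulphide isomerase of luminal epithelium, was at least 1.75-fold higher in tRNA-Glu arrays, at 50.8 and 55.6 against 22.2 and 21.8 in tRNA-Arg arrays. CST2, another cystatin of this family, was at least 1.31-fold higher, and SLC30A4, a zinc exporter, at least 1.25-fold. MINCR, a long noncoding RNA, and SLC25A35, a mitochondrial carrier, had bounds of 1.24 and 1.24. In the other direction ZEB1, the transcription factor that represses E-cadherin, was at least 1.42-fold lower in tRNA-Glu, at 25.7 and 25.4 against 47.5 and 41.6 in tRNA-Arg arrays; control arrays had 65.7 and 81.2. SNORA4, a small nucleolar RNA, CPEB4, a cytoplasmic polyadenylation factor, PHTF2 and the kinase NEK4 had bounds between 1.3 and 1.34.

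Short genes were called higher in tRNA-Glu arrays more often than long genes. Span is the length from first to last base of a gene in the RefSeq table of GRCh38.p14, and 10572 genes had one. Genes were put in 5 equal bins by span. In the bin of shortest span (up to 8658 bases) the median log2 difference was 0.16, with 35.9% of genes higher and 8.75% lower. In the bin of longest span (from 87009 bases) it was -0.07, with 14.2% higher and 27.6% lower. Over all genes Spearman's rho of span with the difference was -0.25, a description over genes of the same 4 arrays. Against the shared control arrays, the medians of the shortest and longest bins were 0.18 and -0.07 for tRNA-Glu minus control, and 0.04 and -0.03 for tRNA-Arg minus control. Promoter G+C content (rho 0.06 over 8634 genes, 81.6% of those tested) and level (rho -0.04) moved far less with it. Genes of chromosome 19 had a median of 0.26 with 46.5% higher, and those of chromosome 13 a median of -0.19 with 38.7% lower. Among runs of 15 neighbouring tested genes, that from KHSRP to PNPLA6 on chromosome 19 had the highest median, shared with an overlapping run (0.52, 14 of 15 higher), and that from KRR1 to METTL25 on chromosome 12 the lowest, shared with overlapping runs (-0.58, 12 of 15 lower). The part of span in any result here was not tested beyond subtracting, from each gene, the median of its own bin among 20 bins of span. That step was chosen after seeing the data. The resulting span-corrected median is given with some of the gene groups. The step also takes away the median over all genes, which was 0.05 before it. Span-corrected and uncorrected medians therefore do not share the same reference.

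**Figure D3:**
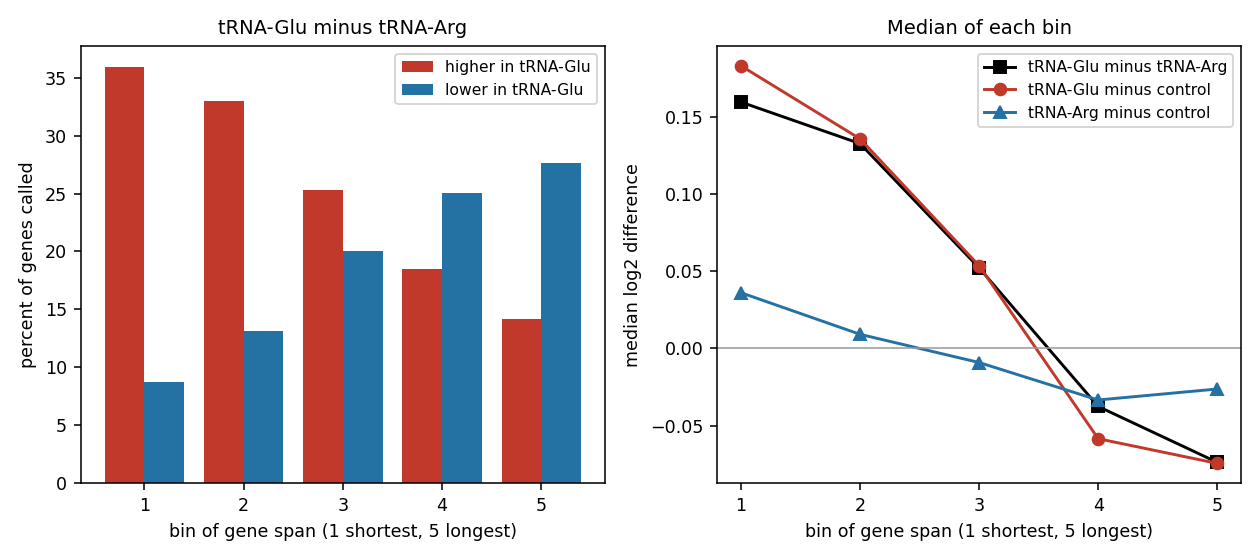
The left panel shows the percent of genes called higher and lower in tRNA-Glu against tRNA-Arg in each of 5 bins of gene span, and the right panel the median log2 difference of each bin in 3 contrasts. The share called higher is 35.9% in the shortest bin and 14.2% in the longest, and the contrast of tRNA-Arg with control stays between 0.04 and -0.03.

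Gene lists are described by how many measured members were called, beside 25.4% higher and 18.9% lower over all genes. Of all genes, 4686 were called, against 3350 without tRNA-Glu replicate 1, 2756 without tRNA-Glu replicate 2, 3116 without tRNA-Arg replicate 1, 3124 without tRNA-Arg replicate 2 and 1323 with median scaling. Targets of NF-kB, the transcription factor of inflammatory signalling, and cytokines had 19 of 35 higher (54.3%) and 2 lower, with a median of 0.26 and a span-corrected median of 0.21. Besides LCN2, SAA1 and SERPINA3, CSF3, the granulocyte growth factor, measured 493 and 542 in tRNA-Glu arrays, 214 and 231 in tRNA-Arg arrays and 171 and 163 in control arrays. The tRNA-Glu arrays were the highest in CSF3 and the tRNA-Arg arrays were above control (log2 1.22 ± 0.09 SE, limma adjusted p = 0.000472). The 2 members that fell included CXCL8, interleukin-8 (-0.32), chosen after its value was seen, which lost its call with median scaling and without tRNA-Glu replicate 2 or tRNA-Arg replicate 1. In those 3 settings no member was called lower. Against control, 22 members were higher in the tRNA-Glu line and 16 in the tRNA-Arg line, with medians of 0.57 and 0.08. The count called higher was 11 without tRNA-Glu replicate 2 and 11 with median scaling.

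Some promoters of these genes hold the motif that NF-kB binds. The list was chosen for targets of NF-kB, so a share above that of all genes follows from that choice. The letters searched were GGGA, any 1 base, then TTTCC, on both strands, from 250 bases before to 50 after each start in RefSeq, build GRCh38.p14. Of 27 measured list members with a promoter in the table, 8 held it (29.6%), against 0.649% of 8634 tested genes with one. Of the members called higher, 4 of 13 held it, and of the others 4 of 14. The windows of those 4 higher genes follow, 5′ to 3′ on the gene's strand, with the motif in capitals.
IL32, chr16:3065284-3065333, plus strand: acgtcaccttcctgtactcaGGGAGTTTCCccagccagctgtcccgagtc
NFKBIA, chr14:35404801-35404850, minus strand: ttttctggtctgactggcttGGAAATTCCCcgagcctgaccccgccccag
IL6, chr7:22727107-22727156, plus strand: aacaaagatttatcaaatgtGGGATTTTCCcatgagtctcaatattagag
CXCL1, chr4:73869294-73869343, plus strand: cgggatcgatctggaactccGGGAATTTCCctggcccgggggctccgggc
IL32, a cytokine of human cells (0.63), rose more than the others shown, NFKBIA, the inhibitor that holds NF-kB in the cytoplasm (0.40), IL6 (0.24) and CXCL1, a neutrophil chemokine (0.48). The last 3 had limma adjusted p = 0.00987, 0.0349 and 0.0449, and lost their call in 3, 8 and 5 other settings. LCN2 and SERPINA3 had no match to these letters in their promoters. The letters are a narrow form of the motif, and other forms were not searched. The LCN2 promoter holds gggaatgtcc, which differs from the letters by 1 base.

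Interferon-stimulated genes are switched on by interferon signalling and carry out antiviral defence. Of 49 measured members, 23 were higher in the tRNA-Glu line (46.9%) and 3 lower, with a median of 0.22 and a span-corrected median of 0.21. IFIT1 binds viral RNA in the cytoplasm, and IFIT3 is its partner. IFIT3 measured 658 and 621 in tRNA-Glu arrays, 331 and 336 in tRNA-Arg arrays and 145 and 160.1 in control arrays, and IFIT1 422 and 421 in tRNA-Glu arrays, 246 and 231 in tRNA-Arg arrays and 71.4 and 78.2 in control arrays. Both lines were above control in these genes, the tRNA-Glu line further (log2 0.94 ± 0.08 and 0.82 ± 0.08 SE between the lines, limma adjusted p = 0.000769 and 0.000953); a dimmer IFIT3 probe differed by -0.29. ISG15, a ubiquitin-like modifier, had the same order at 1333 and 1460.4 in tRNA-Glu arrays, 876 and 886 in tRNA-Arg arrays and 294 and 283 in control arrays. BST2, tetherin, which holds budding virus at the cell surface, measured 564 and 597 in tRNA-Glu arrays, 346 and 319 in tRNA-Arg arrays and 332 and 318 in control arrays, and its tRNA-Arg arrays overlapped the control arrays. GBP1, a guanylate-binding protein, fell by 0.80 and was chosen after its value was seen. With median scaling 13 members were called higher. Against control, 27 members were higher and 10 lower in the tRNA-Glu line (median 0.28), and 19 and 13 in the tRNA-Arg line (median 0.06).

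The interferon response motif, GAAA, any 2 bases, then GAAA, on either strand, was held by 27 of the 42 measured members with a promoter in the same table (64.3%), against 2.87% of the tested genes. The list was chosen for genes of this response, so a share above that of all genes follows from that choice. The motif did not part the members: 11 of 16 called higher held it, and 16 of 26 others. The 4 members of smallest p are shown, with the motif in capitals and overlapping matches run together.
IFIT3, chr10:89327821-89327904, plus strand: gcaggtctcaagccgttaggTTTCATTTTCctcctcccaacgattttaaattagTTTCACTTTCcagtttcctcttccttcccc
IFIT1, chr10:89392487-89392549, plus strand: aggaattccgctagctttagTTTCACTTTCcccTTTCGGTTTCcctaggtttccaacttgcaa
BST2, chr19:17405725-17405780, minus strand: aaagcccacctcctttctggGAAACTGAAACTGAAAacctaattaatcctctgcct
ISG15, chr1:1013364-1013419, plus strand: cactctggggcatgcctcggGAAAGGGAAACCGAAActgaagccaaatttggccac
Each of these windows holds 2 matches. Those of BST2 and ISG15 overlap.

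Antigen presentation by HLA class I had 8 of 16 members higher and 1 lower, with a median of 0.29 and a span-corrected median of 0.20. HLA-F, a class I molecule of restricted expression, measured 949.8 and 941 in tRNA-Glu arrays, 612 and 606 in tRNA-Arg arrays and 779 and 738 in control arrays and was called to either side of control, higher in the tRNA-Glu line (0.32) and lower in the tRNA-Arg line (-0.32). Another HLA-F probe differed by 0.09 between the lines. TAPBP, tapasin, which loads peptides (0.41), HLA-B (0.52) and HLA-G (0.53) also rose. HLA genes share long stretches of sequence, so their probes may share signal. The count higher was 5 without tRNA-Glu replicate 2, 5 without tRNA-Arg replicate 1 and 1 with median scaling, where the median was 0.31.

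**Figure D4:**
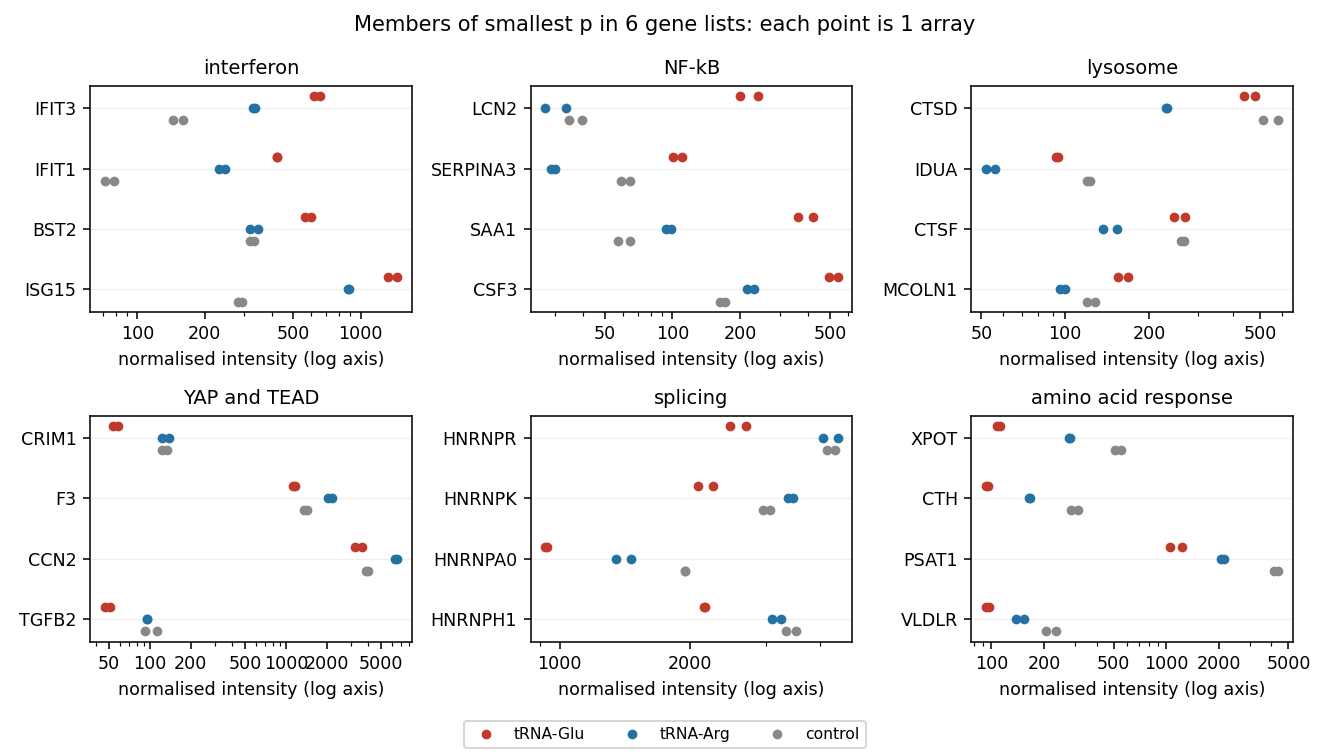
Normalised intensity (log axis) of the 4 members of smallest p in 6 gene lists, with 1 point per array for tRNA-Glu, tRNA-Arg and control. In IFIT1 and ISG15 both lines lie above control with tRNA-Glu highest, in CTSD and IDUA the tRNA-Arg arrays lie below both other groups, and in XPOT and PSAT1 both lines lie below control with tRNA-Glu lowest.

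Lysosomal and autophagy genes had 37 of 64 members called higher (57.8%) and 6 lower, with a median of 0.27 and a span-corrected median of 0.22. Lysosomes digest proteins, lipids and sugars with acid hydrolases. CTSD, the aspartic protease cathepsin D, measured 438 and 479 in tRNA-Glu arrays, 229.7 and 232 in tRNA-Arg arrays and 511 and 581 in control arrays. IDUA, which breaks down glycosaminoglycans, measured 93.9 and 92.3 in tRNA-Glu arrays, 51.96 and 56.1 in tRNA-Arg arrays and 120.1 and 123 in control arrays. CTSF, the cysteine protease cathepsin F, measured 268 and 246 in tRNA-Glu arrays, 136 and 153 in tRNA-Arg arrays and 261 and 266 in control arrays. In all 3 genes the tRNA-Arg arrays were the lowest and the tRNA-Glu arrays were nearer to control (log2 0.99 ± 0.09, 0.79 ± 0.08 and 0.83 ± 0.09 SE, limma adjusted p = 0.000812, 0.000903 and 0.0011). MCOLN1, a lysosomal calcium channel, lay on either side of control, at 154 and 168 in tRNA-Glu arrays, 95.7 and 99.6 in tRNA-Arg arrays and 119 and 128 in control arrays. Against control, 27 members were higher and 14 lower in the tRNA-Glu line (median 0.15), and 9 and 21 in the tRNA-Arg line (median -0.09). CTSC, cathepsin C, went the other way between the lines (-0.47) and was chosen after its value was seen. Its call was lost with median scaling and without tRNA-Glu replicate 2 or tRNA-Arg replicate 1. Without any 1 of the 4 line arrays 25 to 27 members were higher and 0 to 2 lower, and with median scaling 10 and 0.

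The E-box TCACGTGA, which the lysosomal regulator TFEB binds in many lysosomal promoters, was searched after the list's values were seen. It was held by 6 of 46 measured members with a promoter, against 2.13% of tested genes, which may follow from how the list was chosen. Of the members called higher 5 of 27 held it, and of the others 1 of 19. The 3 members called higher with 2 matches each are shown, with the motif in capitals.
MCOLN1, chr19:7522562-7522636, plus strand: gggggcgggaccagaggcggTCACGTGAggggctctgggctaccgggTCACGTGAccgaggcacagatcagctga
GAA, chr17:80101484-80101576, plus strand: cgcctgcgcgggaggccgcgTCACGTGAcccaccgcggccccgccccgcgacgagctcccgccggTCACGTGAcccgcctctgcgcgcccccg
LAMP1, chr13:113297190-113297264, plus strand: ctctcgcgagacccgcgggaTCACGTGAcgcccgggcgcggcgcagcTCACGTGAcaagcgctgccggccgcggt
GAA, acid alpha-glucosidase, rose by 0.76 on the log2 scale. LAMP1, a lysosomal membrane protein, differed by 0.22 (limma adjusted p = 0.042), and its call was lost in 11 other settings.

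Cholesterol synthesis genes and targets of SREBP2, the factor that senses sterol shortage, had 15 of 35 higher (42.9%) and 4 lower, with a median of 0.23 and a span-corrected median of 0.26, and 5 higher with median scaling. The list also holds lipid genes that make no cholesterol, so its counts do not describe cholesterol synthesis alone. Among them are ABCA1, the cholesterol exporter, and SCD, stearoyl-CoA desaturase, which acts on fatty acids. ABCA1 measured 765 and 772 in tRNA-Glu arrays, 359 and 349 in tRNA-Arg arrays and 809 and 849 in control arrays. SCD measured 847 and 853 in tRNA-Glu arrays, 416 and 415 in tRNA-Arg arrays and 1347 and 1441 in control arrays. The tRNA-Arg arrays were the lowest of the 6 in both genes, and the tRNA-Glu arrays were close to control in ABCA1 and below it in SCD (log2 1.12 ± 0.07 and 1.03 ± 0.08 SE, limma adjusted p = 0.000472 and 0.000482). ACSS2, acetyl-CoA synthetase, also rose (0.70). SC5D, a late step of sterol synthesis, fell (-0.65), as did INSIG1, which retains SREBP in the endoplasmic reticulum (-0.48), and SQLE, squalene epoxidase (-0.39), both chosen after their values were seen.

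**Figure D5:**
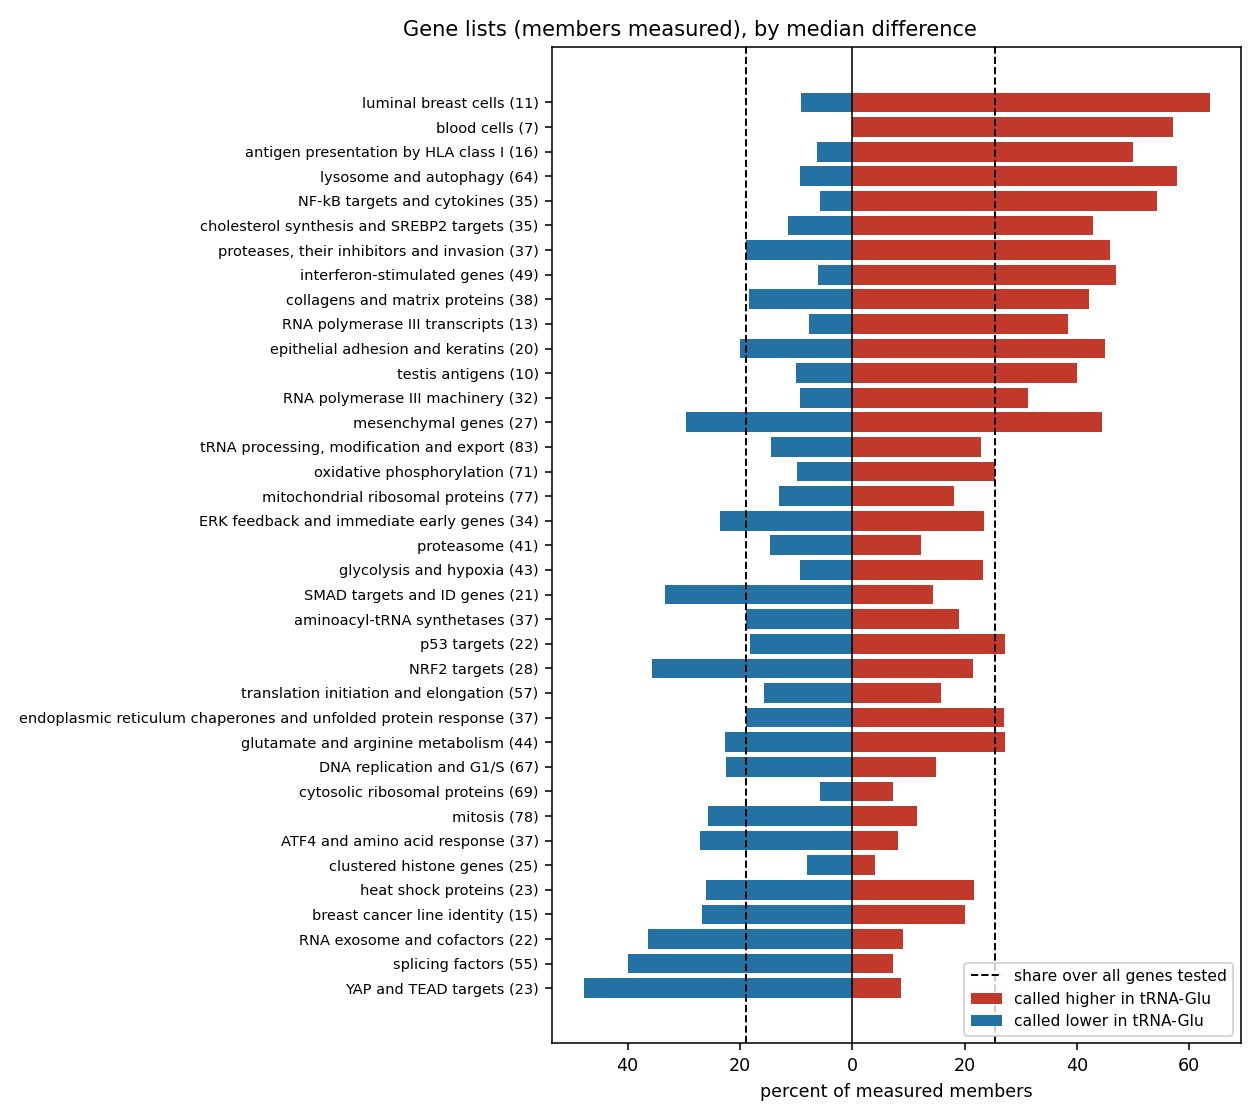
Percent of measured members called higher (right) and lower (left) in tRNA-Glu against tRNA-Arg for each of 37 gene lists, with the number of members measured, ordered by median difference. Dashed lines mark 25.4% higher and 18.9% lower over all genes, and the bars of lysosomal, NF-kB and interferon genes pass the right line while those of YAP and TEAD targets and splicing factors pass the left.

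Matrix and protease genes moved in both directions. Collagens and matrix proteins had 16 of 38 higher (42.1%) and 7 lower, with a median of 0.20 and 0.10 without the filter on detection; with median scaling 6 were called higher and 3 lower, and 3 were lower without tRNA-Glu replicate 2 or tRNA-Arg replicate 1. COL6A2, a chain of the beaded collagen VI (1.03), LAMB2, a laminin chain (0.75), and LOXL4, a collagen cross-linking oxidase (0.71), rose. THBS1, thrombospondin-1, a matrix protein that activates TGF-beta, fell by 1.11, at 1416 and 1447 in tRNA-Glu arrays, 2986 and 3188 in tRNA-Arg arrays and 1796 and 1573 in control arrays, and its tRNA-Arg arrays were the highest. Proteases, their inhibitors and invasion genes had 17 of 37 higher (45.9%) and 7 lower, with a median of 0.23, a span-corrected median of 0.14 and 0.07 without the filter on detection, and 3 lower with median scaling. S100A4, a calcium-binding protein of motile cells, measured 3971 and 3695 in tRNA-Glu arrays, 1883 and 1908 in tRNA-Arg arrays and 1290.0 and 1417 in control arrays (log2 1.02 ± 0.08 SE, limma adjusted p = 0.000676). ADAM10, a membrane sheddase, fell by 0.98.

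Epithelial and mesenchymal genes gave no single direction. Epithelial adhesion genes and keratins had 9 of 20 higher and 4 lower (median 0.17, 0.01 without the filter on detection and 0.09 span-corrected). The count higher was 5 without tRNA-Glu replicate 2 and 4 with median scaling. ITGB4, the hemidesmosome integrin (0.81), JUP, plakoglobin (0.91), and KRT19, a luminal keratin (0.72), rose, and TJP1, the tight junction protein ZO-1, fell (-0.72). Mesenchymal genes had 12 of 27 higher and 8 lower (median 0.07, but 0.23 without tRNA-Glu replicate 2), and 6 or 7 were higher without any 1 of the 4 line arrays, and 4 with median scaling. ACTA2, smooth muscle actin, rose by 1.12 and EMP3, a membrane protein, by 0.62. ZEB1 is counted among the 8 lower, though of the 2 lines it was above background only in tRNA-Arg. With detection required on all 4 line arrays, 12 of 25 mesenchymal genes were higher and 8 lower. Markers of luminal breast cells had 7 of 11 measured higher and 1 lower (median 0.49, 0.24 without the filter on detection), and 3 higher with median scaling. The 7 include AGR2, which of the 2 lines was above background only in tRNA-Glu. With detection required on all 4 line arrays, 5 of 8 luminal markers were higher and 1 lower. The lower marker was XBP1 (-0.52), chosen after its value was seen, and its call was lost with median scaling. Summed over the 23 luminal markers on the array, normalised intensity was 3871 and 3988 in tRNA-Glu arrays, 3403 and 3432 in tRNA-Arg arrays and 4064 and 3865 in control arrays. XBP1 made up most of the control sums, at 2331 and 2131, against 917 and 928 in tRNA-Glu arrays and 1292 and 1353 in tRNA-Arg arrays. Of the 23, 11 were detected on no line array, TFF1 and GREB1 among them.

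Blood cell markers are given beside the cytokine and interferon genes. Of 21 such markers on the array 7 were measured, 4 were called higher and 0 lower (median 0.39, 0.08 without the filter on detection). Summed over all 21, intensity was 4294 and 4505 in tRNA-Glu arrays, 3198 and 3096 in tRNA-Arg arrays and 2266 and 2203 in control arrays. CD68, a lysosomal protein of macrophages, made up most of each sum. It measured 2727 and 2896 in tRNA-Glu arrays, 2107 and 2034 in tRNA-Arg arrays and 1294 and 1203 in control arrays. LAPTM5, a lysosomal membrane protein of blood cells, measured 780.1 and 811 in tRNA-Glu arrays, 439 and 431 in tRNA-Arg arrays and 267 and 306 in control arrays. CD14, a receptor for lipopolysaccharide, rose by 0.88, CD68 by 0.44 and FCGR3A, an Fc receptor, by 0.39. The call of FCGR3A was lost with median scaling and without tRNA-Glu replicate 1, tRNA-Glu replicate 2 or tRNA-Arg replicate 2, and with median scaling 2 markers were called. CD8A, of cytotoxic T cells, was detected on all 4 line arrays, at 54.9 and 56.9 in tRNA-Glu arrays and 53.8 and 55.9 in tRNA-Arg arrays. CSF1R, a macrophage growth factor receptor, was so too, at 71.7 and 91.1 in tRNA-Glu arrays and 63.7 and 66.8 in tRNA-Arg arrays; neither passed the test. Of the 21, 13 were detected on no line array, among them PTPRC, of all leukocytes, CD3D and CD3E, of T cells, MS4A1, of B cells, and LYZ and TYROBP, of myeloid cells. Of 12 endothelial markers 3 were measured, 2 of them called higher and 0 lower (median 0.55). Summed over the 12, intensity was 861 and 933 in tRNA-Glu arrays, 766 and 744 in tRNA-Arg arrays and 565 and 554 in control arrays. ESAM, an adhesion molecule, was the largest part, at 475 and 542 in tRNA-Glu arrays, 449 and 420 in tRNA-Arg arrays and 228 and 211 in control arrays. Of the 12, 8 were detected on no line array, with VWF, KDR and CDH5 among them. The part of the blood and endothelial markers in the cytokine and interferon results was not tested. In RNA from bulk cells, fewer cells of a kind and less RNA per cell cannot be told apart.

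YAP and TEAD targets, the genes by which the Hippo pathway reads cell shape and density, had 11 of 23 lower (47.8%) and 2 higher, with a median of -0.25 and a span-corrected median of -0.32. CCN2, connective tissue growth factor and a classical target, measured 3233 and 3625 in tRNA-Glu arrays, 6574 and 6296 in tRNA-Arg arrays and 4011 and 3856 in control arrays. F3, tissue factor, measured 1129 and 1159 in tRNA-Glu arrays, 2048 and 2174 in tRNA-Arg arrays and 1356 and 1421 in control arrays. In CCN2 and F3 the tRNA-Arg arrays were the highest and the tRNA-Glu arrays the lowest, with control between (log2 -0.91 ± 0.09 and -0.88 ± 0.08 SE, limma adjusted p = 0.000812 and 0.000763). CRIM1, a membrane protein that binds BMPs, measured 57.8 and 53.3 in tRNA-Glu arrays, 122 and 138 in tRNA-Arg arrays and 123 and 133 in control arrays, and TGFB2, a TGF-beta ligand, fell by 0.96; in both the tRNA-Arg arrays lay among the control arrays. Against control, 7 members were higher and 5 lower in the tRNA-Glu line (median 0.02), and 11 and 0 in the tRNA-Arg line (median 0.17). With median scaling 5 members were called lower and 0 higher, and 1 was higher without tRNA-Glu replicate 1, tRNA-Glu replicate 2 or tRNA-Arg replicate 1.

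Targets of SMAD proteins, which carry TGF-beta and BMP signals, and ID genes had 7 of 21 lower and 3 higher, with a median of 0.01. The count lower was 4 without tRNA-Glu replicate 2 or tRNA-Arg replicate 2, and 4 with median scaling. NOG, noggin, a secreted BMP inhibitor, measured 41.97 and 39.9 in tRNA-Glu arrays, 84.4 and 86.4 in tRNA-Arg arrays and 36.5 and 32.98 in control arrays, FST, follistatin, an activin inhibitor, fell by 0.65 and SMAD7, the inhibitory SMAD, by 0.58. ID1, a BMP-responsive inhibitor of differentiation, rose by 0.61, at 2640.3 and 2514 in tRNA-Glu arrays, 1611 and 1772 in tRNA-Arg arrays and 621 and 616 in control arrays. The 2 secreted inhibitors NOG and FST were thus highest in tRNA-Arg arrays, and ID1 in tRNA-Glu arrays.

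Splicing factors had 22 of 55 lower (40%) and 4 higher, with a median of -0.21 and a span-corrected median of -0.23. HNRNPR measured 2693 and 2483 in tRNA-Glu arrays, 4067 and 4399 in tRNA-Arg arrays and 4162 and 4342 in control arrays. HNRNPA0 measured 928 and 934 in tRNA-Glu arrays, 1349 and 1466 in tRNA-Arg arrays and 1947 and 1946 in control arrays. Both are heterogeneous nuclear ribonucleoproteins, which coat nascent RNA, and their tRNA-Glu arrays were the lowest of the 6 (log2 -0.71 ± 0.08 and -0.60 ± 0.08 SE, limma adjusted p = 0.00133 and 0.00172). HNRNPH1 fell by 0.55; HNRNPK fell by 0.65 on its brightest probe while another probe differed by 0.42. Against control, 26 members were lower and 8 higher in the tRNA-Glu line (median -0.22), and 9 and 10 in the tRNA-Arg line (median -0.01). Without any 1 of the 4 line arrays 12 to 15 members were called lower and 1 to 3 higher, and with median scaling 8 and 0.

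EXOSC2, a cap subunit of the RNA exosome, and GRIPAP1, an endosomal adaptor protein, are genes that published work on these lines linked to tRNA-Glu. EXOSC2 measured 565 and 519 in tRNA-Glu arrays, 662 and 691 in tRNA-Arg arrays and 648 and 621 in control arrays. It was 1.25-fold lower in tRNA-Glu arrays (log2 -0.32 ± 0.08 SE, limma adjusted p = 0.0162), and the call was lost with median scaling and without tRNA-Glu replicate 2 or tRNA-Arg replicate 2. GRIPAP1 measured 303 and 326 in tRNA-Glu arrays, 225 and 203 in tRNA-Arg arrays and 240.4 and 268 in control arrays and was 1.47-fold higher (log2 0.55 ± 0.10 SE, limma adjusted p = 0.00403); a dimmer probe differed by 0.16, and the call was lost with median scaling. The RNA exosome degrades and trims RNA from its 3′ end. Of its 22 measured subunits and cofactors 8 were lower (36.4%) and 2 higher, with a median of -0.13 and a span-corrected median of -0.20, and 3 lower with median scaling. RBM7, which guides the exosome to nuclear RNA, fell by 0.82, SKIC3, a scaffold of the cytoplasmic helper complex, by 0.60, and ZCCHC8, the partner of RBM7, by 0.49. SKIC2, the helicase of the cytoplasmic complex, rose by 0.50.

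Mitotic genes were lower on balance of calls, 20 of 78 (25.6%) against 9 higher (11.5%), with a median of -0.06. Against control the list's medians were 1.01 in the tRNA-Glu line and 1.13 in the tRNA-Arg line. Without tRNA-Glu replicate 1, tRNA-Glu replicate 2 or tRNA-Arg replicate 1 the count lower was 12, 11 and 12, and 6 with median scaling; 3 to 5 were higher without any 1 of the 4 line arrays. KIF23, a kinesin of cytokinesis, measured 519 and 575 in tRNA-Glu arrays, 1024 and 999.6 in tRNA-Arg arrays and 419 and 442 in control arrays. MAD2L1, a spindle checkpoint protein, measured 1034 and 948 in tRNA-Glu arrays, 1669 and 1699.7 in tRNA-Arg arrays and 1306 and 1321 in control arrays. KIF23 was above control in both lines and highest in tRNA-Arg arrays, while MAD2L1 lay to either side of control. FAM83D, a spindle protein, fell by 0.60, and CENPM, a kinetochore protein, rose by 0.43. DNA replication genes had 15 of 67 lower and 10 higher, with a median of -0.04. The count lower was 8 without tRNA-Glu replicate 2, the count higher 5 without tRNA-Glu replicate 1, tRNA-Glu replicate 2 or tRNA-Arg replicate 1, and with median scaling 6 were lower and 1 higher. RRM2, the regulated subunit of ribonucleotide reductase, measured 178 and 176 in tRNA-Glu arrays, 378 and 366 in tRNA-Arg arrays and 507 and 545 in control arrays, and ATAD2, a chromatin ATPase, fell by 1.02. In RRM2 both lines lay below control, and the tRNA-Glu line was lowest. Clustered histone genes had 1 of 25 higher and 2 lower.

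The amino acid response through ATF4, which uncharged tRNA sets off, had 10 of 37 members lower (27.0%) and 3 higher, with a median of -0.06 and a span-corrected median of -0.16, and 5 lower with median scaling; 1 was higher without tRNA-Glu replicate 2 or tRNA-Arg replicate 1. PSAT1, an enzyme of serine synthesis, measured 1057 and 1229 in tRNA-Glu arrays, 2154 and 2066 in tRNA-Arg arrays and 4378 and 4153 in control arrays. CTH, which makes cysteine, measured 96.3 and 93.4 in tRNA-Glu arrays, 166 and 164 in tRNA-Arg arrays and 286 and 315 in control arrays. VLDLR, a lipoprotein receptor, measured 96.5 and 93.2 in tRNA-Glu arrays, 138 and 153 in tRNA-Arg arrays and 206 and 235 in control arrays. In all 3, as in XPOT, both lines were below control and the tRNA-Glu arrays were the lowest (log2 -0.89 ± 0.09, -0.80 ± 0.08 and -0.61 ± 0.10 SE between the lines, limma adjusted p = 0.00103, 0.000955 and 0.00286). Against control, the list's medians were -0.58 in the tRNA-Glu line and -0.47 in the tRNA-Arg line.

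Genes that load and mature tRNAs differed little as groups. EPRS1 charges tRNA-Glu and tRNA-Pro, and RARS1 charges tRNA-Arg. EPRS1 measured 1994 and 2068 in tRNA-Glu arrays, 2163 and 2298 in tRNA-Arg arrays and 2713 and 3029.6 in control arrays (log2 -0.13 ± 0.09 SE, limma adjusted p = 0.239). RARS1 measured 2828 and 2937 in tRNA-Glu arrays, 3062 and 3048 in tRNA-Arg arrays and 2675 and 2739 in control arrays (log2 -0.08 ± 0.07 SE, limma adjusted p = 0.377). Neither passed the test between the lines, although their arrays did not overlap. Of 37 measured aminoacyl-tRNA synthetases 7 were higher and 7 lower (18.9% each), with a median of 0.01, and 2 to 4 higher and 3 lower without any 1 of the 4 line arrays, and 0 and 2 with median scaling. MARS2, mitochondrial methionyl-tRNA synthetase, fell by 0.90 and NARS2, the mitochondrial asparaginyl enzyme, by 0.53, while cytosolic HARS1 and VARS1 rose by 0.47 and 0.39. Genes of tRNA processing, modification and export had 19 of 83 higher and 12 lower, near the shares over all genes, with a median of 0.07, and 9 higher without tRNA-Glu replicate 2 or tRNA-Arg replicate 1 and 12 without tRNA-Arg replicate 2. The count lower was 4 to 7 without any 1 of the 4 line arrays, and with median scaling 2 were higher and 2 lower. QTRT1, which inserts queuosine into the anticodon of some tRNAs, rose by 0.76, and NSUN2, a tRNA cytosine methyltransferase, fell by 0.45.

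RNA polymerase III and its cofactors had 10 of 32 higher (6 without tRNA-Arg replicate 1, 2 with median scaling) and 3 lower, with a median of 0.10, and SNAPC2, a subunit of the complex that starts transcription of small nuclear RNA genes, rose by 0.66. Of 13 measured transcripts of the polymerase 5 were higher and 1 lower, with a median of 0.20 and a span-corrected median of 0.10, and with median scaling 2 and 0. RN7SK, which holds the elongation factor P-TEFb inactive, measured 258 and 259 in tRNA-Glu arrays, 170.1 and 155 in tRNA-Arg arrays and 174 and 131 in control arrays. RNY1, a Ro-associated Y RNA, measured 159.7 and 179 in tRNA-Glu arrays, 118 and 110.4 in tRNA-Arg arrays and 138 and 116 in control arrays. The tRNA-Glu arrays were the highest of the 6 in both. Probes of such short, structured and repeated RNAs may also read related copies. Enzymes of glutamate and arginine metabolism had 12 of 44 higher and 10 lower, with a median of -0.04. The count lower was 5 without tRNA-Glu replicate 2 and 6 without tRNA-Arg replicate 1, and with median scaling 3 were higher and 5 lower. SLC25A22, a mitochondrial glutamate carrier, rose by 0.79, and OAT, ornithine aminotransferase, fell by 0.63.

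Several lists had shares called near or below those of all genes. Cytosolic ribosomal proteins had 5 of 69 higher and 4 lower (median -0.05, 0.06 with median scaling and -0.22 span-corrected). Mitochondrial ribosomal proteins had 14 of 77 higher and 10 lower, oxidative phosphorylation 18 of 71 and 7, the proteasome 5 of 41 and 6, and translation factors 9 of 57 and 9. Without any 1 of the 4 line arrays the count higher was 2 to 7 for mitochondrial ribosomal proteins, 4 to 9 for oxidative phosphorylation and 3 to 5 for translation factors, and with median scaling 0 for each. For the proteasome it was 1 without tRNA-Glu replicate 2, 2 without tRNA-Arg replicate 1 or tRNA-Arg replicate 2 and 0 with median scaling. EIF3J, a subunit of initiation factor eIF3, fell by 0.93 and ABCE1, the ribosome recycling factor, by 0.62. Among p53 targets, 6 of 22 were higher and 4 lower: CDKN1A, the cell cycle inhibitor p21, measured 3265 and 3362 in tRNA-Glu arrays, 1717 and 1746 in tRNA-Arg arrays and 1695 and 1781 in control arrays, GDF15, a stress-induced cytokine, rose by 0.94, and TIGAR, a glycolysis regulator, fell by 0.79. CDKN1A was higher in tRNA-Glu arrays than in both other groups, whose arrays overlapped (log2 0.94 ± 0.07 SE, limma adjusted p = 0.000649).

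Stress and signalling lists were mixed. NRF2 targets, the antioxidant programme, had 10 of 28 lower and 6 higher. The count lower was 6 without tRNA-Glu replicate 1 or tRNA-Glu replicate 2 and 5 without tRNA-Arg replicate 1, and with median scaling 4 were lower and 1 higher. ABCC3, a drug and bile salt exporter, measured 384 and 371 in tRNA-Glu arrays, 204 and 198 in tRNA-Arg arrays and 1023 and 1006 in control arrays and thus was below control in both lines, further in tRNA-Arg. GCLM, which limits glutathione synthesis, fell by 0.75 on its brightest probe and differed by 0.41 on another. Heat shock proteins had 5 of 23 higher and 6 lower, with CHORDC1, a co-chaperone, at -1.08 and HSPB1, the small heat shock protein HSP27, at 0.41. Without tRNA-Glu replicate 2 or tRNA-Arg replicate 1 their counts were 1 higher and 3 lower, without tRNA-Arg replicate 2 they were 2 and 2, without tRNA-Glu replicate 1 they were 2 and 6, and with median scaling 0 and 3. Unfolded protein response genes had 10 of 37 higher and 7 lower, and glycolysis and hypoxia genes 10 of 43 and 4. The count higher of the unfolded protein response was 6 without tRNA-Glu replicate 2 or tRNA-Arg replicate 1 and 2 with median scaling, and that of glycolysis and hypoxia 5 with median scaling. ALDOC, an aldolase, measured 333 and 344 in tRNA-Glu arrays, 163 and 158 in tRNA-Arg arrays and 421 and 406 in control arrays, and its tRNA-Arg arrays were the lowest. ERK feedback and immediate early genes had 8 of 34 higher and 8 lower. The count higher was 2 without tRNA-Glu replicate 1, 3 without tRNA-Arg replicate 2, 4 without tRNA-Glu replicate 2 or tRNA-Arg replicate 1, and with median scaling 2 were higher and 2 lower. PHLDA2, an imprinted gene, rose by 0.71, and DUSP1, which inactivates MAP kinases, fell by 0.60. Testis antigens had 4 of 10 higher and 1 lower, among SPANX genes of nearly identical sequence whose probes may share signal. The count higher was 1 without tRNA-Glu replicate 2 or tRNA-Arg replicate 2, 2 without tRNA-Glu replicate 1 or tRNA-Arg replicate 1 and 0 with median scaling. SPANXD differed by 0.46 between the lines, beside 3.04 for tRNA-Glu minus control and 2.58 for tRNA-Arg minus control.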

How the data were processed

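The deposited file gave, per the file headers, a non-normalized bead intensity for 47323 probes on 6 arrays, each with its detection p-value. A second deposited table holds intensities that the authors quantile-normalised on a linear scale, as its values show; the submitters' processing notes name lumi, without a version. Another table holds the authors' deposited log2-like fold changes per gene, with base and sign not stated. No column came from another series.

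Intensities were background-corrected and quantile-normalised with neqc (limma 3.58.1, R 4.3.3, offset 16). A probe was kept where 2 or more of the 4 line arrays had a detection p below 0.01, which left 17301. Of the array's probes 30113 have 1 gene, 8 several and 17202 none in the platform annotation. Of the kept probes with 1 gene, 13819 were named through Entrez in the RefSeq table of GRCh38.p14 and 7 kept the file's name. The brightest kept probe stood for each of 10579 genes, of which 2706 had several.

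All 6 arrays entered 1 limma fit, which had 3 residual degrees of freedom, and p-values were adjusted over all genes by Benjamini-Hochberg and called under 0.05. The step was tested on simulated data. Replicate numbers did not pair the samples (r of deviations -0.05 to 0.02). Genes named are the 12 rises and 12 falls of largest size, called and without overlap between the lines' arrays, up to 5 genes above background (detection p under 0.01 against 0.05 or more) in 1 line only per direction, up to 4 members of smallest p per list with at least 5 measured members, and EXOSC2, GRIPAP1, EPRS1 and RARS1. From that set the text gives those with the clearest known roles, and says where a gene was added after its value was seen, as IL32, NFKBIA, IL6, CXCL1, GAA and LAMP1 were for their promoters. The members and lists were chosen with earlier results of these data known. Alternatives were other background corrections, scalings, offsets, filters, probe rules and sample sets. With 2 arrays per group, the number of arrays limits the precision.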

Additional observations from a re-analysis of the deposited data

Results flagged for a closer look

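In 18 of the named genes the lines departed from control in opposite directions, each departure called in the limma fit. Both departures were measured against the same 2 control arrays. The difference between the lines is given as a description, since it does not test whether the lines lie on opposite sides of control and these genes were picked for opposite calls. Higher in the tRNA-Glu line and lower in the tRNA-Arg line were SERPINA3 (log2 difference between the lines 1.83), NNMT, a nicotinamide methyltransferase (1.23), GDF15 (0.94), MCOLN1 (0.72), PHLDA2 (0.71), HLA-F (0.64), EMP3 (0.62), the cytosolic ribosomal protein RPL28 (0.61) and the mitochondrial ribosomal protein MRPS16 (0.50). Lower in the tRNA-Glu line and higher in the tRNA-Arg line were LBR (-1.41), LGR4 (-1.29), CHORDC1 (-1.08), F3 (-0.88), MAD2L1 (-0.77), NEK4 (-0.77), GCLM (-0.75), the mitochondrial ribosomal protein MRPL39 (-0.74) and SEC24D, a coat protein of secretory vesicles (-0.63). Another probe of LBR differed by -0.20, of GCLM by 0.41 and of HLA-F by 0.09. Groups of 2 arrays are too small to look for an array that stands apart.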

How the results depend on the processing

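Of 190 genes followed, 186 were called, and none changed sign in any of 16 other settings; 2898 of their values stayed on the same side of the threshold, 121 lost the call and 1 gained it. Among genes named in the text, HARS1, VARS1, TAPBP, HLA-B, HLA-G, CD68, HSPB1, MRPS16, CENPM, ZCCHC8, SKIC2, RNY1, HNRNPH1, SPANXD, NSUN2, INSIG1 and SQLE lost the call with median scaling alone, and GCLM with the mean of its probes. Median scaling called 1323 genes, 559 higher and 764 lower in the tRNA-Glu line. Counts past a fold depended on how low signals were treated, since these settings shrink differences of dim probes. Without background correction 284 genes were at least 1.5-fold higher and 349 lower, and 19 and 17 passed 2-fold. With an offset of 50 these were 227 and 285, and 16 and 15. With the authors' processed values they were 323 and 373, and 20 and 19. Leaving out 1 array gave 2756 to 4649 called genes, 1522 to 2680 higher and 1234 to 1969 lower. At 1.5-fold 545 to 636 were higher and 519 to 665 lower, and at 2-fold 42 to 56 and 50 to 71. The fewest calls came without tRNA-Glu replicate 2, in fits with fewer arrays. Without the filter on detection 20046 genes were tested and 19.9% called. With the replicate number as a block, 4527 genes were called, 2581 higher and 1946 lower, 553 and 570 past 1.5-fold and 45 and 56 past 2-fold. Span-corrected medians not given above include -0.08 for oxidative phosphorylation (0.06 before), -0.08 for mitochondrial ribosomal proteins (0.06 before) and -0.03 for tRNA processing, modification and export (0.07 before). Others were 0.03 for RNA polymerase III machinery (0.10 before), 0.02 for testis antigens (0.15 before) and 0.22 for collagens and matrix proteins (0.20 before). A slide block was not run because the files used here give no slide, and residue content was not analysed here.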

Other observations

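The run of 15 neighbouring tested genes from KRR1 to METTL25 on chromosome 12 had a median of -0.56 for tRNA-Glu minus control and -0.06 for tRNA-Arg minus control. Of all called genes, 219 had kept probes that differed in sign between the lines.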
